A study of Mus musculus with 6 samples.

Results

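Calcium stored in the endoplasmic reticulum leaves through IP3 receptors and ryanodine receptors, is pumped back by SERCA ATPases, and is replenished from outside the cell when the store sensor STIM1 opens the plasma membrane channel ORAI1. In glomus cells, which sense oxygen in the carotid body, and in chromaffin cells of the adrenal medulla, a rise in cytosolic calcium triggers the release of catecholamines. The 10 genes described here are the 3 IP3 receptor genes, the 3 ryanodine receptor genes, 2 SERCA genes, Stim1 and Orai1. They were chosen by name, and all 10 were found among the 23511 genes of the deposited table that have an mRNA length.

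RNA was sequenced from 3 carotid body pools and 3 adrenal medulla pools of untreated adult C57/BL6 mice, with no genetic change named in the labels. Per the labels' design note, each carotid body pool holds 18 organs and each adrenal medulla pool 10 organs, from 10 mice, so n counts pools, and p-values measure only the spread between pools. Whole tissue was ground for RNA, so a difference in the number of cells of a type and a difference in RNA per cell cannot be told apart. Depth was 13266225 to 16445925 reads per library, and pools of the same tissue differed by more than sampling noise.

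The 9 genes on the glomus and chromaffin cell list were detected in both tissues. Their summed level was 2547 to 3390 RPKM in carotid body pools and 17310 to 28884 RPKM in adrenal medulla pools (RPKM, reads scaled by mRNA length and by library depth). The genes did not all differ in one direction. In the comparison described below, 7 of the 9 were lower in the carotid body, 1 was higher and 1 was not called. Ddc was at 777 to 917 RPKM in carotid body pools and 210 to 282 RPKM in adrenal medulla pools. The sum is therefore no measure of the number of these cells. Markers of other cell types also differed. The 9 adrenal cortex markers summed to 29.9 to 116 RPKM in the carotid body and 9055 to 12295 RPKM in the adrenal medulla, so the adrenal medulla libraries held cortical RNA. Smooth muscle and pericyte markers summed to 2570 to 3107 RPKM in the carotid body and 111 to 120 RPKM in the adrenal medulla. Glia markers (315 to 504 against 43.9 to 62.9 RPKM), endothelial markers (444 to 536 against 158 to 213 RPKM) and fibroblast markers (2157 to 2860 against 58.9 to 167 RPKM) differed in the same direction. A pair of libraries stood apart. Carotid body pool 2 had 3073 RPKM of fat markers, against 223 and 405 in pools 1 and 3 and 218 to 628 in the adrenal medulla. Adrenal medulla pool 3 had 0.0903 RPKM over 4 Y-linked genes, against 25.1 to 68.3 in the other 5 libraries. Xist, the RNA of the inactive X chromosome, was at 4.80 RPKM in that pool and 0.176 to 0.992 RPKM in the other 5. By these genes adrenal medulla pool 3 held next to no male RNA, while the other 5 libraries held male RNA. Fits without that pool therefore also differ in the sex of the mice.

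Of the 10 store genes, Atp2a3 and Itpr3 were higher in the carotid body and none was called lower. Atp2a3, which encodes the SERCA3 pump, was 12.9 times as abundant there, and Itpr3, the type 3 IP3 receptor, 3.66 times. Orai1 was 2.01 times as abundant, with a call that depended on the model. The widely expressed pump gene Atp2a2 averaged nearly the same level in both tissues, and the 3 ryanodine receptor genes stayed below 1 RPKM in every library. The 10 genes were compared as log2(RPKM + 1) with limma. The fit covered 13357 genes with 1 RPKM or more in 3 or more libraries, and a gene was called where its p, adjusted by Benjamini-Hochberg over all of them, was under 0.05. Positive log2 differences mean a higher level in the carotid body, and on this scale they understate the fold difference of low genes. The filter passed 7 of the 10, of which 2 were called higher, 0 lower and 5 were not called. Over all tested genes 21.9% were called, 14.2% higher and 7.73% lower. Itpr3 passed the filter through its carotid body level alone, and Atp2a3 through that level with 1 adrenal medulla library, so the share of members called is no measure of the group. Of the 7, Atp2a3, Itpr3, Itpr2 and Orai1 had no overlap between the tissues, which was true of 37% of all tested genes. With no filter on low values, 33.6% of 19505 genes with a read had no overlap, 20.6% with the carotid body above.

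**Figure D1:**
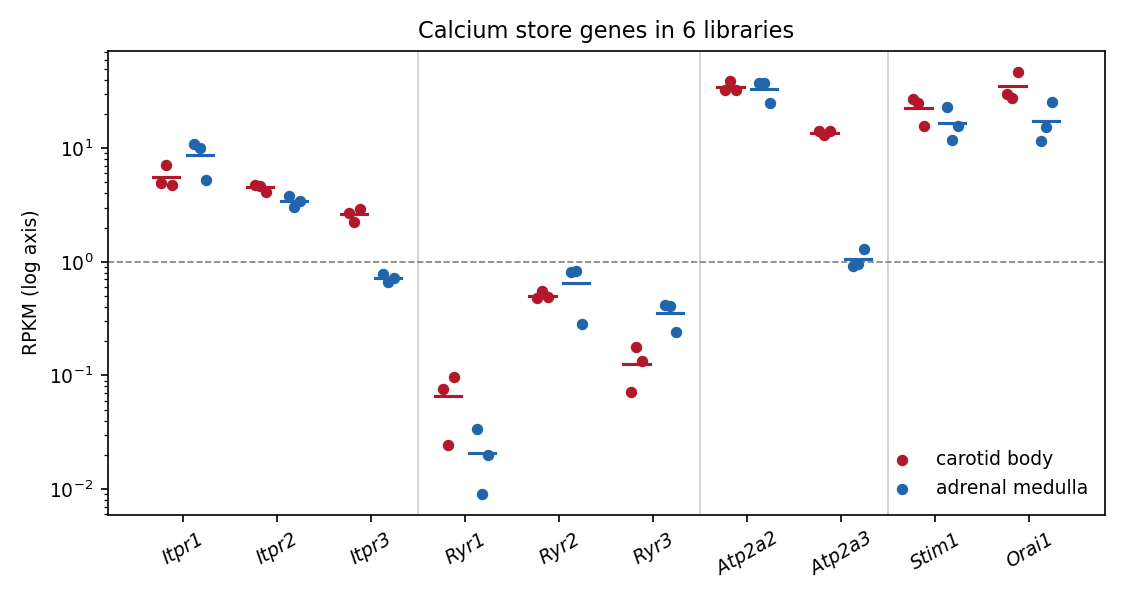
RPKM of the 10 genes in each library on a log axis, with carotid body pools in red and adrenal medulla pools in blue. Short lines are means over 3 pools, and the dashed line is the 1 RPKM filter. The Atp2a3, Itpr3, Itpr2 and Orai1 points of the carotid body all lie above those of the adrenal medulla, and all ryanodine receptor points lie below the dashed line.

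SERCA pumps return calcium from the cytosol to the store. Atp2a2 encodes SERCA2, the isoform of heart muscle and, in a longer form, of nearly every cell. Atp2a3 encodes SERCA3, a pump of lower calcium affinity known from platelets, lymphocytes, endothelium and some secretory epithelia.

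Atp2a3 stood at 14.1, 12.9 and 14.1 RPKM in carotid body pools 1, 2 and 3, and at 0.921, 0.958 and 1.31 RPKM in adrenal medulla pools 1, 2 and 3. The carotid body pools were all high, within a coefficient of variation of 4.91%, and the tissues did not overlap. These values rest on 791 to 1010 reads per carotid body library and 57 to 99 per adrenal medulla library. The mean was 13.7 ± 0.674 RPKM against 1.06 ± 0.213 RPKM (SD, n = 3 each), a log2 difference of 2.84 ± 0.20 (SE, limma adjusted p = 2.98e-05), and 193 of the 13357 tested genes, or 1.44%, had a difference at least as large. The call held in 15 of 15 alternatives, with adjusted p between 2.08e-05 and 5.02e-04. Markers of cell types that use this pump differed in the same direction. The 12 blood and immune markers summed to 407 to 546 RPKM in the carotid body and 168 to 338 RPKM in the adrenal medulla. There 4 of 8 tested members were higher, as were 7 of 10 endothelial markers, against 14.2% of all tested genes. The endothelial markers Emcn, Kdr and Tek overlapped between the tissues. Marker sums of other cell types differed by more. Their means were 2755 against 115 RPKM for smooth muscle and pericytes, 2491 against 120 for fibroblasts and 426 against 56.0 for glia. Pf4, known from platelets and macrophages, was at 158, 78.9 and 110 RPKM in carotid body pools and 18.9, 20.3 and 23.5 RPKM in adrenal medulla pools, and Ptprc, the pan-leukocyte marker, was at 4.16, 3.71 and 2.53 against 2.91, 2.59 and 0.874 RPKM. The B cell marker Cd79a was at 0 in all 3 carotid body libraries. The part of any of these cell types in the Atp2a3 level was not tested.

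Atp2a2 stood at 32.5, 38.6 and 32.4 RPKM in carotid body pools and at 37.7, 37.3 and 25.2 RPKM in adrenal medulla pools. The ranges overlapped, and adrenal medulla pool 3 was the lowest library. The log2 difference was 0.06, with a 95% interval of -0.47 to 0.60 (limma adjusted p = 0.90), and its sign turned with the libraries left out, for example to -0.12 without adrenal medulla pool 3. Atp2a2 was above 87.1% to 90.5% of the genes of a library by RPKM. The sum of both pumps was 46.6, 51.6 and 46.5 RPKM in the carotid body and 38.6, 38.3 and 26.5 RPKM in the adrenal medulla. Atp2a3 made up 30.3%, 25.1% and 30.3% of that sum in carotid body pools and 2.39%, 2.5% and 4.93% in adrenal medulla pools. Its share averaged 28.6% ± 3.02 against 3.27% ± 1.43 (SD, n = 3 each), and the tissues did not overlap. An exact two-sided permutation test gave p = 0.1, the smallest value that 3 pools against 3 allow, and 0.186 after Benjamini-Hochberg adjustment over 13 such family measures. Atp2a1, the skeletal muscle pump SERCA1, averaged 0.194 ± 0.0453 RPKM in carotid body pools and 0.191 ± 0.126 RPKM in adrenal medulla pools, below the filter.

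**Figure D2:**
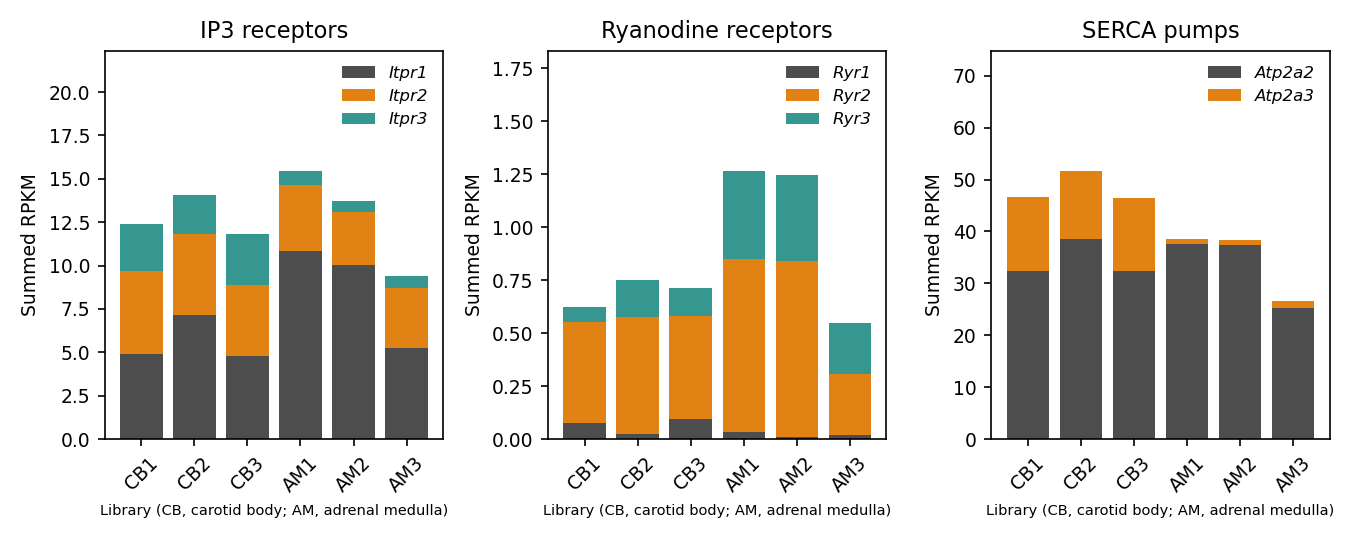
Summed RPKM of the IP3 receptors, the ryanodine receptors and the SERCA pumps in each library, stacked by gene, with carotid body pools (CB) left of adrenal medulla pools (AM). Atp2a3 adds 12.9 to 14.1 RPKM to the SERCA sum in carotid body pools and 0.921 to 1.31 RPKM in adrenal medulla pools.

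IP3 receptors open when IP3, made by phospholipase C, binds together with calcium. Itpr1 is the main type of many neurons and of smooth muscle, Itpr2 is known from heart muscle and secretory cells, and Itpr3 from secretory epithelia and taste cells.

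Itpr3 stood at 2.71, 2.23 and 2.94 RPKM in carotid body pools and at 0.776, 0.661 and 0.715 RPKM in adrenal medulla pools, from 267 to 412 and from 85 to 106 reads. The carotid body pools were all above 2 RPKM and the adrenal medulla pools all below 1 RPKM. The log2 difference was 1.07 ± 0.16 (SE, limma adjusted p = 0.00169), and the call held in the 14 of 14 alternatives that tested the gene, with adjusted p between 9.55e-04 and 0.0125. Keeping all low genes in the fit cannot change the log2 difference itself, and the limma adjusted p was then 0.00389. An antisense gene, Itpr3os, overlaps Itpr3 exons in the GENCODE M21 annotation of a later build than the authors' mm9. Strand-specific counting is not given in the sources used here, so reads from the stretch that the pair shares cannot be told apart. Of the 31-base windows of the Itpr3 transcript, 1.95% also occur in transcripts of other genes, nearly all in Itpr3os. The share of Itpr3 reads from that stretch was not tested.

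Itpr2 stood at 4.77, 4.67 and 4.12 RPKM in carotid body pools and at 3.82, 3.03 and 3.41 RPKM in adrenal medulla pools. All carotid body pools were above all adrenal medulla pools, as for 22.3% of the tested genes, but the difference was small against the spread that limma allows. The log2 difference was 0.32, with a 95% interval of -0.12 to 0.76 (adjusted p = 0.302), and no alternative called it.

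Itpr1 stood at 4.93, 7.14 and 4.77 RPKM in carotid body pools and at 10.8, 10.0 and 5.28 RPKM in adrenal medulla pools. Adrenal medulla pools 1 and 2 were above every carotid body pool, while pool 3 lay within the carotid body range. The log2 difference was -0.52 ± 0.30 (SE), with a 95% interval of -1.20 to 0.16 (limma adjusted p = 0.278). Without adrenal medulla pool 3 it was -0.81 and called (adjusted p = 0.0367) in a fit that called 25.9% of genes, 15% higher and 11% lower, and without that library and carotid body pool 2 it was -0.97 (adjusted p = 0.0162), where 29.9% were called, 14.4% higher and 15.5% lower. The sum of the neuron marker list was also lowest in adrenal medulla pool 3, at 216 RPKM. It was 354 and 400 RPKM in pools 1 and 2 and 399 to 433 RPKM in the carotid body. Stmn2 and Snap25 made up most of it, with Snap25 at 163, 198 and 64.0 RPKM in adrenal medulla pools. Among adrenal medulla pools, Prph, Slc6a2 and Elavl3 were lowest in pool 1, and the rest of the list in pool 3. The part of neurons in the Itpr1 level was not tested, nor whether the genes of this list mark neurons alone in these tissues.

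The sum of the 3 IP3 receptors was 12.4, 14 and 11.8 RPKM in carotid body pools and 15.4, 13.7 and 9.40 RPKM in adrenal medulla pools, with overlapping ranges. The makeup of the sum differed. Itpr3 supplied 21.8%, 15.9% and 24.8% of it in carotid body pools and 5.03%, 4.81% and 7.61% in adrenal medulla pools. Itpr1 supplied 39.7%, 50.9% and 40.3% in carotid body pools and 70.2%, 73.1% and 56.1% in adrenal medulla pools. On the RPKM scale Itpr1 was the leading type in all 6 libraries. Both shares separated the tissues, with p = 0.1 in the exact permutation test and 0.186 adjusted. The share of Itpr2 overlapped, at 35.5% ± 2.67 against 27.7% ± 7.54 (SD, n = 3 each). Shares compare genes on the RPKM scale, per length, over mRNAs of 9.01 to 11.8 kb. The Itpr1 and Itpr3 shares from read numbers, which are not per length, separated the tissues in the same direction. On reads the order of types turned in carotid body pools 1 and 3, where Itpr2 had 43.6% and 39.9% and Itpr1 37.6% and 38.5%.

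The windows upstream of 4 of these genes are shown. Atp2a3 and Itpr3 were called higher in the carotid body, and Orai1 was higher in all its pools. Itpr2 is the close relative of Itpr3 that was not called. Each window is the 250 bases before the annotated transcription start in RefSeq on GRCm38.p6, read 5′ to 3′ on the gene's strand. The RefSeq promoter table held 7 of the 10 genes. The Atp2a3 window is chr11:72960919-72961168 on the plus strand, that of Itpr3 is chr17:27057054-27057303 on the plus strand, that of Orai1 is chr5:123014824-123015073 on the plus strand, and that of Itpr2 is chr6:146502224-146502473 on the minus strand. Capitals mark matches, on either strand, to the GC box GGGCGG and to ACGTG and GCGTG, the core letters of hypoxia response elements.
Atp2a3: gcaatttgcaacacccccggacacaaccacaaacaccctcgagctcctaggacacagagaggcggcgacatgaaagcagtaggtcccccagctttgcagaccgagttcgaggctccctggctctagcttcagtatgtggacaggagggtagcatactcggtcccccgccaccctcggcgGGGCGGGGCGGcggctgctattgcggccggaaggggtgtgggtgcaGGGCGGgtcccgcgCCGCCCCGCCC
Itpr3: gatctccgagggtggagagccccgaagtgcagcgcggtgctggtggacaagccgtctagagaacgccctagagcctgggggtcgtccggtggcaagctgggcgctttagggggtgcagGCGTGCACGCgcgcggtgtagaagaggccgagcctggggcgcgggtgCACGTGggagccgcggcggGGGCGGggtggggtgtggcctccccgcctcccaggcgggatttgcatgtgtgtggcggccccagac
Orai1: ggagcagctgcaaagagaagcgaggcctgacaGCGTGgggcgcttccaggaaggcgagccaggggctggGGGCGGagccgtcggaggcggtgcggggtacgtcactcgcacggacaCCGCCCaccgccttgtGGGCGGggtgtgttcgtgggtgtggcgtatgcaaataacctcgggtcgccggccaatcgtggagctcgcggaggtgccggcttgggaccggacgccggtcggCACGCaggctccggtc
Itpr2: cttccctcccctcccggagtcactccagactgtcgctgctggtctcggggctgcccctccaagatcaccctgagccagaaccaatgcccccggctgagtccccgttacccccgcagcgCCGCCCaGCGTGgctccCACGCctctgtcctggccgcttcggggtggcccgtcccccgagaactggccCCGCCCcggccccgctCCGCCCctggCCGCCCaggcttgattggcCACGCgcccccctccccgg
The Atp2a3 window held 5 GC boxes, overlapping matches included, and no match to ACGTG or GCGTG. The Itpr3 window held 1 GC box, 2 matches to ACGTG, which are both strands of 1 palindrome, and 2 to GCGTG. The Orai1 window held 3 GC boxes and 2 matches to GCGTG, and that of Itpr2 held 4 and 3. The windows of Stim1, Ryr1 and Ryr2, not shown, held 8, 2 and 0 GC boxes. Of all 32851 promoter windows of this length, 32.7% held a GC box, 16.6% held ACGTG and 28.2% held GCGTG. None of the 4 held TATAAA or the cyclic AMP response element TGACGTCA. Their GC content was 66.8% for Atp2a3, 72.0% for Itpr3, 70.8% for Orai1 and 74.4% for Itpr2, against a median of 52.4% over all windows. These matches describe the letters of the windows and do not show binding.

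Ryanodine receptors are very large channels opened by calcium itself or, in skeletal muscle, by the voltage sensor of the plasma membrane. Ryr1 is the skeletal muscle type, Ryr2 the heart and brain type, and Ryr3 a type of wide, low expression. All 3 stayed below 1 RPKM in every library and below the filter of the main comparison.

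Ryr2 was the leading type, at 0.476, 0.551 and 0.485 RPKM in carotid body pools and 0.815, 0.833 and 0.286 RPKM in adrenal medulla pools. Because its mRNA is 16.8 kb long, these levels rest on 116 to 127 and 79 to 200 reads. The exact Poisson 95% interval of adrenal medulla pool 3, 0.226 to 0.356 RPKM, lay below those of the other 5 libraries, and the tissues overlapped through that library. With no filter the log2 difference was -0.11 (limma adjusted p = 0.693). Heart muscle markers summed to 5.82 to 6.84 RPKM in the carotid body and 6.67 to 12.3 RPKM in the adrenal medulla. Of that list only Tnnt2 was higher in every adrenal medulla pool. It was at 1.62, 0.918 and 0.573 RPKM in carotid body pools and 8.28, 3.64 and 5.58 RPKM in adrenal medulla pools. Actc1 and Tnni3 were higher in every carotid body pool, with Actc1 at 1.79, 0.813 and 1.62 against 0.428, 0.353 and 0.787 RPKM. The rest of the list overlapped. Myh6, the heart myosin, was at 0.0227, 0 and 0.0106 RPKM in carotid body pools and 0, 0.0115 and 0.01 RPKM in adrenal medulla pools.

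Ryr3 stood at 0.0716, 0.176 and 0.133 RPKM in carotid body pools and at 0.415, 0.405 and 0.241 RPKM in adrenal medulla pools, from 16 to 36 and from 61 to 89 reads. Every adrenal medulla pool was above every carotid body pool, as for 13% of the 19505 genes with a read. With no filter the log2 difference was -0.26 (limma adjusted p = 0.0501), which missed the threshold in a fit that called 17% of genes, 11.3% higher and 5.73% lower. On recovered reads, with limma's voom and no filter, it was -1.50 on a log2 scale of reads relative to library depth and was called (adjusted p = 0.0395), where 18.4% of genes were called, 11.9% higher and 6.47% lower. Aven, an apoptosis regulator gene on the other strand, overlaps exons of Ryr3 in GENCODE M21, and 5.54% of the 31-base windows of the Ryr3 transcript also occur in Aven transcripts. Aven had 294 to 348 reads per carotid body library and 297 to 334 per adrenal medulla library, at 15.4 ± 1.22 and 14.9 ± 2.33 RPKM, so reads of Ryr3 are uncertain.

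Ryr1 had 17, 5 and 23 reads in carotid body pools and 7, 2 and 5 reads in adrenal medulla pools, or 0.0763, 0.0245 and 0.0962 RPKM against 0.0339, 0.00912 and 0.0198 RPKM. The ranges overlapped, the lowest carotid body pool being below the highest adrenal medulla pool. No test called Ryr1, with an adjusted p of 0.390 with no filter and 0.166 with voom on reads. The skeletal muscle list summed to 34.5 to 46.7 RPKM in the carotid body and 29.9 to 38.4 RPKM in the adrenal medulla. Its fast myosin heavy chain genes Myh1, Myh2 and Myh4 were near 0, at most 0.0983 RPKM in any library. Ckm was at most 0.244 RPKM. Acta1 and Myl1 made up most of the list sum in 5 of the 6 libraries, all but carotid body pool 1. By contrast, 2 of the 6 tested markers, the fast troponin genes Tnnt3 and Tnni2, were higher in the carotid body, through which they passed the filter. Tnni2 was at 7.44, 3.39 and 4.43 RPKM in carotid body pools and 0.335, 0.315 and 1.28 RPKM in adrenal medulla pools, and Tnnc2, another fast troponin gene, was at 0 in all 3 adrenal medulla libraries. The part of muscle cells in the Ryr1 level was not tested. Opposite-strand genes also overlap exons of Ryr1, Itpr1, Atp2a2 and Orai1 in GENCODE M21. Of the 31-base windows of the Atp2a2 transcript, 7.43% also occur in transcripts of other genes, and for Itpr1 2.41% do, so those reads are uncertain too. Counting intervals cover counting error only, since amplified reads carry no molecular identifiers.

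Together the 3 ryanodine receptors summed to 0.623, 0.752 and 0.715 RPKM in carotid body pools and 1.26, 1.25 and 0.546 RPKM in adrenal medulla pools. They made up 5.19% ± 0.469 of the RPKM of all 6 release channels in carotid body pools, against 7.13% ± 1.47 in adrenal medulla pools (SD, n = 3 each), and IP3 receptors the rest. Those ranges overlapped (exact permutation p = 0.2, adjusted 0.289). Within the ryanodine receptors, Ryr3 supplied 11.5%, 23.4% and 18.7% in carotid body pools and 32.9%, 32.4% and 44.1% in adrenal medulla pools, again separated, with p = 0.1 in the exact permutation test (0.186 adjusted).

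**Figure D3:**
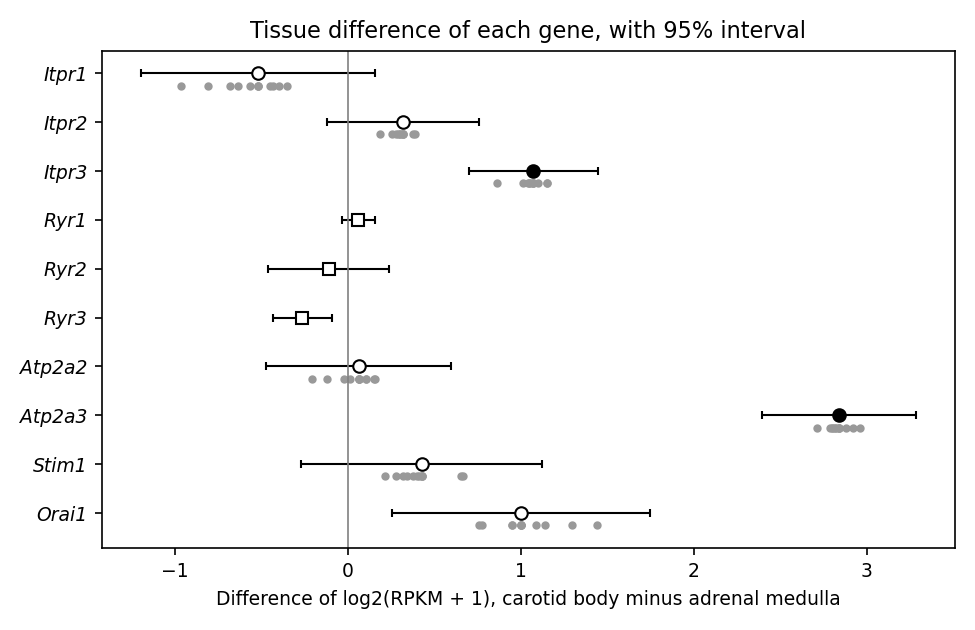
Log2(RPKM + 1) difference of each gene, carotid body minus adrenal medulla, with the limma 95% interval. Circles are the filtered comparison and squares, for the ryanodine receptors, the unfiltered one. Filled symbols are called, and grey points below are alternatives on the same scale. Atp2a3 stays between 2.71 and 2.96 and Itpr3 between 0.86 and 1.15, while the grey points of Atp2a2 lie on both sides of 0.

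STIM1 senses the calcium level inside the store and, when it drops, gathers at contacts with the plasma membrane and opens ORAI1. Orai1 stood at 30.1, 27.8 and 47.0 RPKM in carotid body pools and at 11.5, 15.2 and 25.4 RPKM in adrenal medulla pools. All carotid body pools were above all adrenal medulla pools, and pool 3 was the highest of each tissue. The mean was 35.0 ± 10.4 against 17.4 ± 7.20 RPKM (SD, n = 3 each), a log2 difference of 1.00 ± 0.33 (SE) with a 95% interval of 0.25 to 1.75 (limma adjusted p = 0.0616). Deviations of equally numbered pools correlated at 0.259, 0.128 and 0.473 across genes, but those of carotid body pool 2 and adrenal medulla pool 1 also did, at 0.291, so the numbers are an uncertain pairing. With the pool number as a block Orai1 was called at an adjusted p of 0.00938, in a fit that called 27% of genes, 16.9% higher and 10.2% lower. It was also called without adrenal medulla pool 3, at 1.30 (adjusted p = 0.0101), and without that library and carotid body pool 2, at 1.44 (0.0144).

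Stim1 stood at 27.3, 24.9 and 15.8 RPKM in carotid body pools and at 22.9, 11.8 and 15.5 RPKM in adrenal medulla pools. The ranges overlapped widely, and the log2 difference was 0.43 with a 95% interval of -0.27 to 1.12 (adjusted p = 0.395). No alternative called it. Orai1 made up 52.4%, 52.8% and 74.9% of the sum of both genes in carotid body pools and 33.5%, 56.4% and 62.1% in adrenal medulla pools, so the tissues overlapped in this share (exact permutation p = 0.6).

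Read in order of level, the carotid body means ran from Orai1 (35.0 ± 10.4 RPKM) and Atp2a2 (34.5 ± 3.59) through Stim1 (22.7 ± 6.09), Atp2a3 (13.7 ± 0.674), Itpr1 (5.61 ± 1.33), Itpr2 (4.52 ± 0.352) and Itpr3 (2.63 ± 0.359) to Ryr2 (0.504 ± 0.0413), Ryr3 (0.127 ± 0.0526) and Ryr1 (0.0657 ± 0.0370). Orai1 and Atp2a2 overlapped, as did Itpr1 and Itpr2, and Ryr3 and Ryr1. In the adrenal medulla the order was Atp2a2 (33.4 ± 7.09 RPKM), Orai1 (17.4 ± 7.20), Stim1 (16.7 ± 5.63), Itpr1 (8.72 ± 3.01), Itpr2 (3.42 ± 0.396), Atp2a3 (1.06 ± 0.213), Itpr3 (0.717 ± 0.0578), Ryr2 (0.645 ± 0.311), Ryr3 (0.354 ± 0.0979) and Ryr1 (0.0209 ± 0.0124). There Atp2a2 overlapped Orai1, Orai1 overlapped Stim1, Itpr3 overlapped Ryr2, and Ryr2 overlapped Ryr3. Atp2a3 thus stood above every IP3 receptor in each carotid body pool and below Itpr1 and Itpr2 in each adrenal medulla pool.

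The 5 genes whose centred values across the 6 libraries were nearest to those of Atp2a3, among 6714 genes whose higher tissue mean was 10 RPKM or more, were Csrp1, Ddah2, Fam89a, Gdf10 and Cryab. Csrp1, a LIM protein abundant in smooth muscle, averaged 379 RPKM in the carotid body and 53.2 RPKM in the adrenal medulla, at a Euclidean distance of 0.37 on the log2 scale. Ddah2, an enzyme that breaks down methylated arginines, averaged 130 and 20.1 RPKM (distance 0.37). Cryab, a small heat shock protein, averaged 195 and 29.3 RPKM (0.42), and Gdf10, a secreted TGF-beta family member, 102 and 15.9 RPKM (0.41). Fam89a averaged 13.5 and 0.796 RPKM (0.40). Distances are on log2(RPKM + 1), which understates the fold difference of low genes such as Atp2a3. Nearness therefore does not mean an equal fold difference in RPKM.

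The 6 lists of partner genes were read in the same fit, and across all tested genes the median log2 difference was 0.02. Their counts stand beside 21.9% called over all tested genes, 14.2% higher and 7.73% lower. With the block these shares were 27%, 16.9% and 10.2%, and fits without 1 library called 1460 to 1999 of the 13357 genes higher and 692 to 1464 lower. Pln and Jph2 passed the 1 RPKM filter through the carotid body alone, Jsrp1 and Atp2b3 through the adrenal medulla alone, and Casq2 through the carotid body with 1 adrenal medulla library. Genes like these had to differ to be tested, so the counts and medians describe the tested genes only. Partners that bind or regulate the pump were led by phospholamban. Pln, the inhibitor of SERCA2 in heart and smooth muscle, stood at 30.7, 26.4 and 24 RPKM in carotid body pools and at 0.450, 0.311 and 0.0981 RPKM in adrenal medulla pools. Every carotid body pool was high and every adrenal medulla pool under 1 RPKM. Its log2 difference was 4.45 ± 0.21 (SE, limma adjusted p = 1.10e-05), larger than that of any store gene. Calu, the store calcium binder calumenin, was higher as well (1.16, at 67.6 ± 6.05 against 29.6 ± 2.64 RPKM). These 2 were the called genes among 11 tested of 13 listed, 0 were lower, and the list median was -0.21. Leaving out 1 library gave 2 higher and 0 to 2 lower. The chaperone Hspa5, also a store calcium binder, was at 199 ± 27.5 against 338 ± 92.2 RPKM and was not called (-0.73, adjusted p = 0.106), and calreticulin, Calr, was at 71.0 ± 15.4 against 72.3 ± 28.5 RPKM (0.02). Smooth muscle and pericyte markers were higher in the same carotid body libraries for 12 of 13 tested genes, with Acta2 at 830, 456 and 590 RPKM in carotid body pools and 23.3, 21.1 and 21.8 RPKM in adrenal medulla pools. Over all tested genes 14.2% were higher. Of these markers, Myh11, Cnn1, Lmod1 and Cspg4 passed the filter through the carotid body alone and had to differ to be tested. The count of markers therefore describes the tested genes only. The part of smooth muscle cells and pericytes in the Pln level was not tested.

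Of the ryanodine receptor complex and junction list, 11 of 16 genes were tested, 4 were higher, 1 was lower and 6 were not called, with a median of 0.30. Leaving out 1 library gave 2 to 4 higher and 1 to 3 lower. Jph2, a junctophilin that ties the store to the plasma membrane of muscle cells, was higher by 1.97 (4.02 ± 0.151 against 0.281 ± 0.115 RPKM). Casq2, the heart calsequestrin, was higher by 1.57 (3.67 ± 0.642 against 0.635 ± 0.586 RPKM) and Fkbp1b, the FKBP12.6 subunit of ryanodine receptors, by 1.09 (129 ± 21.8 against 60.1 ± 12.4 RPKM). Fkbp1b missed the threshold without carotid body pool 3 (adjusted p = 0.0576). The fourth higher gene was Jph3, a neuronal junctophilin, named here because the count is small (0.91, 9.86 ± 1.49 against 4.82 ± 1.20 RPKM). Its call ended without carotid body pool 2 or 3 (adjusted p 0.0864 and 0.102) or adrenal medulla pool 1 or 2 (0.0864 and 0.0847). Jsrp1, a junctional protein of skeletal muscle, was lower by -1.20 (0.180 ± 0.110 against 1.72 ± 0.238 RPKM). Of these 5 calls, those of Jph2 and Jsrp1 are for genes below 1 RPKM in every library of the lower tissue. Trdn, which anchors calsequestrin to the channel, averaged 0.00509 RPKM in carotid body pools and 0.00517 RPKM in adrenal medulla pools.

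Among genes that make or remove IP3, 16 of 18 were tested, 3 were higher, 0 were lower and 13 were not called, with a median of 0.34. That share called is near the 21.9% of all tested genes. Leaving out 1 library gave 2 to 4 higher and 0 to 1 lower, and the replicate block gave 4 higher and 1 lower, in a fit that called 27% of genes. The 3 were phospholipase C genes. Plce1, a Ras-regulated type, stood at 14.7, 13.8 and 11.3 RPKM in carotid body pools and at 2.26, 2.24 and 0.996 RPKM in adrenal medulla pools, a log2 difference of 2.36 (limma adjusted p = 2.93e-04). The tissues did not overlap. Plcd1, a calcium-sensitive type, was higher by 1.00 (7.62 ± 1.49 against 3.26 ± 0.177 RPKM), and it missed the threshold in the fit that left out carotid body pool 3 (adjusted p = 0.0521). Plcg2, the type used in immune cell signalling, was higher by 0.88 (3.29 ± 0.495 against 1.33 ± 0.277 RPKM). Plcb1, which is driven by Gq, was at 4.11 ± 1.17 against 11.1 ± 5.64 RPKM (-1.16, adjusted p = 0.0527). It was called in 7 of 15 alternatives, among them the replicate block (0.0128), median-ratio scaling (0.0306), quantile scaling (0.0201), voom on reads (0.0469) and the fit without adrenal medulla pool 3, at -1.50 (0.00718). For its partner, Gnaq, which encodes Gq, the level was 34.2 ± 7.37 against 33.2 ± 9.77 RPKM.

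Of the IP3 receptor partners, 11 of 12 were tested, 3 were higher, 1 was lower and 7 were not called, with a median of -0.04. Over all tested genes 14.2% were higher and 7.73% lower. Leaving out 1 library gave 1 to 2 higher and 0 to 1 lower, and the block gave 4 higher and 2 lower, in a fit that called 16.9% of genes higher and 10.2% lower. Mrvi1, the substrate through which cGMP-dependent kinase restrains IP3 receptor type 1 in smooth muscle, was higher by 1.68 (5.48 ± 0.803 against 1.02 ± 0.0911 RPKM). Grina, a membrane protein of the TMBIM family, was higher by 1.02 (225 ± 47.9 against 111 ± 30.2 RPKM). Itpripl1 was higher by 0.83 (2.89 ± 0.812 against 1.18 ± 0.436 RPKM). Cabp1, a calcium-binding protein that inhibits IP3 receptors, was lower by -1.42 (2.08 ± 0.782 against 7.79 ± 4.17 RPKM). Only the call of Mrvi1 was kept whichever 1 library was left out. That of Grina ended without carotid body pool 2 or 3 (adjusted p 0.0631 and 0.119) or adrenal medulla pool 1 or 2 (0.0989 and 0.110), and under median-ratio scaling (0.0567). That of Itpripl1 ended without carotid body pool 1 or 2 (0.0715 and 0.0948) or adrenal medulla pool 1 or 3 (0.0710 and 0.0591). That of Cabp1 ended without carotid body pool 1 or 2 (0.109 and 0.0725) or adrenal medulla pool 2 (0.0797). With no filter, Itpripl1 and Cabp1 were at 0.0557 and 0.0555.

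Among the other store-operated entry genes, 10 of 13 were tested, 3 were higher, 0 were lower and 7 were not called, with a median of 0.50. Fits without 1 library gave 2 to 4 higher and 0 to 1 lower, and the block gave 3 higher and 1 lower. Efcab4a, named CRACR2B in human and related to a regulator of ORAI1, was higher by 1.76 (18.6 ± 2.19 against 4.85 ± 1.19 RPKM, limma adjusted p = 8.82e-04). Homer2, a scaffold protein that binds IP3 receptors, was higher by 1.51 (5.02 ± 0.575 against 1.13 ± 0.400 RPKM). Tmem110, which encodes the STIM activator STIMATE, was higher by 0.95 (12.3 ± 1.30 against 5.91 ± 1.34 RPKM). Tmem110 missed the threshold without carotid body pool 2 or 3 (adjusted p 0.0631 and 0.0559) and without adrenal medulla pool 1 or 2 (0.0528 and 0.0799). The relatives Stim2 (6.95 ± 0.886 against 4.11 ± 1.11 RPKM, adjusted p = 0.0885), Orai2 (2.32 ± 0.547 against 1.72 ± 0.445 RPKM, 0.409) and Orai3 (33.3 ± 2.28 against 23.7 ± 5.0 RPKM, 0.165) were not called.

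Of the genes for calcium export and other organelles, 13 of 16 were tested, 1 was higher, 1 was lower and 11 were not called, with a median of 0.10. Fits without 1 library gave 0 to 2 higher and 1 to 2 lower. Tpcn1, a calcium channel of endosomes and lysosomes, was higher by 0.98 (3.81 ± 1.20 against 1.4 ± 0.299 RPKM), but missed the threshold without carotid body pool 3 (adjusted p = 0.0533) or adrenal medulla pool 1 (0.0554). Atp2b3, a plasma membrane calcium pump of neurons, was lower by -0.88 (0.561 ± 0.00909 against 1.90 ± 0.423 RPKM), and was tested only because its adrenal medulla libraries passed the filter. The mitochondrial calcium uniporter Mcu was not called, at 3.75 ± 0.692 against 5.78 ± 0.567 RPKM (adjusted p = 0.119).

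**Figure D4:**
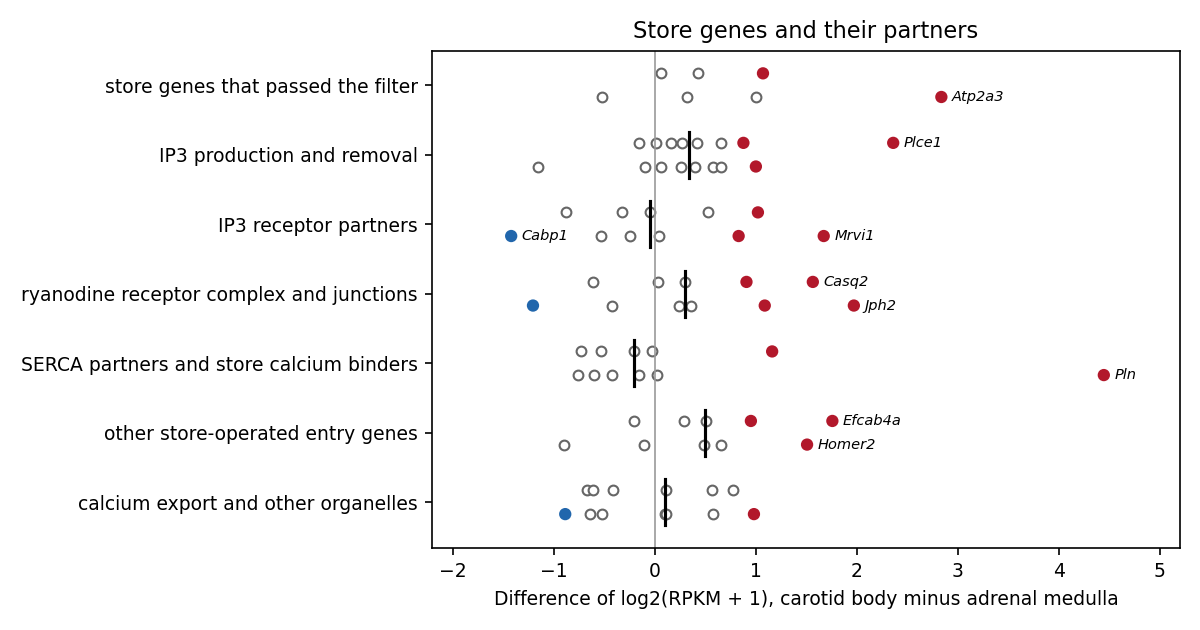
Log2(RPKM + 1) differences, carotid body minus adrenal medulla, of the store genes and of 6 lists of partner genes that passed the filter. Red points are called higher, blue points called lower and open points not called, and black bars are list medians. Pln (4.45), Atp2a3 (2.84) and Plce1 (2.36) lie farthest to the right.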

How the data were processed

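RNA was measured in 3 carotid body and 3 adrenal medulla pools. Per the labels' protocols, total RNA was amplified with a poly(A)-primed aRNA kit and fragmented before library construction. Per the submitters' processing notes, Bowtie 0.9.8 and the mouse build mm9 were used. The deposited values are RPKM made by the authors, with an mRNA length per gene. The 3217 entries with no length hold whole numbers and were left out. RPKM times length gave whole reads, within 0.01, for 106276 of 106276 values, which gave depths of 13266225 to 16445925 reads.

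The main test was limma 3.58.1 (R 4.3.3) on log2(RPKM + 1) with a variance trend and no block, for genes of at least 1 RPKM in at least 3 libraries, with Benjamini-Hochberg adjustment over 13357 genes. It was checked on simulated data. Family sums and shares used exact permutation tests (scipy 1.17.1, Python 3.11.15). The 10 genes, the partner and marker lists and the tests were chosen with earlier results of these data known. The text names all 10 members and, per partner list, up to 4 called genes with the largest difference; for Atp2a3, the called member with the largest difference, it names the 5 nearest genes. Others are named after their values were seen. Deviations from the tissue mean of equally numbered pools correlated at 0.259, 0.128 and 0.473 across genes, all above 0.1, so by that rule the label numbers were taken as pairs and a replicate block was run as an alternative. No shared day or litter is stated, and carotid body pool 2 correlated more with adrenal medulla pool 1 (0.291) than with pool 2, so the pairing is uncertain. The partner list's name Ccdc109a was matched by RefSeq synonym to Mcu, the name among the deposited values. A withheld gene of the partner lists is not reported here. Promoters come from RefSeq on GRCm38.p6, and overlaps from GENCODE M21. No protein sequences were used here.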

Additional observations from a re-analysis of the deposited data

How the results depend on the processing

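Atp2a3 and Itpr3 kept their direction and call in every alternative that tested them. With a 5 RPKM filter, Itpr2 and Itpr3 were not tested, and 1 member was called higher, against 2. Leaving out 1 library gave log2 differences of 2.79 to 2.92 for Atp2a3, 1.01 to 1.15 for Itpr3, 0.76 to 1.30 for Orai1, -0.81 to -0.35 for Itpr1, 0.26 to 0.39 for Itpr2, 0.22 to 0.67 for Stim1 and -0.12 to 0.16 for Atp2a2. Members called higher then numbered 2 to 3 and lower 0 to 1. Genes called higher over the whole table numbered 1460 to 1999 and lower 692 to 1464. The difference in Atp2a3 share of the SERCA sum was 24.4 to 27.1 percentage points, and 21.6 from recovered reads in place of RPKM, where the longer Atp2a2 mRNA counts for more. Atp2a2 reversed to -0.02 without carotid body pool 2, to -0.12 without adrenal medulla pool 3 and to -0.20 without both. Without both, Itpr1 was at -0.97 and Orai1 at 1.44, both called, so 3 members were higher and 1 lower, and 2067 genes were called lower, against 1033. With the replicate block Orai1 was called, at 1.00, and no other member changed its call. A 5 RPKM filter called 1103 genes higher and 632 lower, against 1896 and 1033, in fewer genes tested. Voom on recovered reads with no filter was added after the data were seen; it put Ryr3 at -1.50 and called 1 member lower. Depth limits the ryanodine receptors, with 2 to 23 reads per library for Ryr1 and 16 to 89 for Ryr3. Other causes of these changes were not tested. Of 180 counts over partner lists, 137 stayed within 1.5 times and 43 did not.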
